A study of Homo sapiens with 10 samples.

Results

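The 10 genes described here are core parts of the Notch pathway: the receptors NOTCH1, NOTCH2 and NOTCH3, the ligands DLL1, DLL3 and JAG1, and the nuclear HES/HEY genes HES1, HES6, HEY1 and HEY2. They were chosen by symbol and found by Ensembl identifier, and all 10 were among the 55841 identifiers counted. RNA was sequenced from human embryonic stem cells carrying the cell line label HES9 (a cell line, not a HES gene), while the study's methods name WA09, and these names were not reconciled here. The cells grew in mTESR1 medium on matrigel. The general population was not sorted, and the HHH population was sorted from such cultures for high GCTM-2, CD9 and EPCAM, antigens of undifferentiated stem cells. Batch 1 held 2 general and 2 HHH libraries, and batch 2 held 3 of each. Nothing in the labels says that the replicates were separate cultures, so the p-values measure the spread between these libraries, which may be technical. The deposit's design text speaks of protein kinase C inhibitors, but no library carries that label. All libraries come from 1 line.

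Notch signalling passes between touching cells. A ligand of the Delta or Jagged family on one cell binds a Notch receptor on its neighbour, proteases cut the receptor, and the freed intracellular part enters the nucleus and joins the DNA-binding protein RBPJ. The best known genes switched on there encode HES and HEY repressors, which in the nervous system hold back proneural factors and neuronal differentiation. DLL3 and HES6 stand apart within their families: DLL3 acts mainly inside the cell that makes it and does not activate receptors on neighbours, and HES6 counteracts HES1.

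RBPJ binds DNA around the letters TGGGAA, so the promoters were searched for them. RefSeq (GRCh38.p14) gave a promoter entry for 7 members: NOTCH1, NOTCH2, NOTCH3, JAG1, HES1, HES6 and HEY2. Within the 250 bases before the start, on either strand, 2 of the 7 held TGGGAA, and 20.8% of all 35116 promoters of this length did. These 2 windows are shown because they hold the searched letters, with TGGGAA (or TTCCCA, its reverse complement) in capitals. HES1 lies at chr3:194135898-194136147 and HEY2 at chr6:125749382-125749631, both on the plus strand.
HES1: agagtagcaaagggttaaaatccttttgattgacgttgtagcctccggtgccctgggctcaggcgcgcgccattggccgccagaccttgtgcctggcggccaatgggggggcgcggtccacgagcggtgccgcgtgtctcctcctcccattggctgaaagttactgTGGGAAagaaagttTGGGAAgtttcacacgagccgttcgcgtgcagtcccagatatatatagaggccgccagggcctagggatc
HEY2: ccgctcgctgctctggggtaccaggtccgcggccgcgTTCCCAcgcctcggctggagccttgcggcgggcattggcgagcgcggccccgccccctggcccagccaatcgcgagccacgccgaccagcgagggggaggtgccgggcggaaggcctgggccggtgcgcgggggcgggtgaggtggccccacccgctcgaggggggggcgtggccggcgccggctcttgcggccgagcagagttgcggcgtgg
In HES1 the 2 copies begin 84 and 70 bases before the start and read in the same direction, and 2.9% of all promoters held 2 or more copies. In HEY2 the single copy begins 213 bases before the start and reads in the opposite direction. GENCODE starts HEY2 further upstream, so this window lies inside the gene as annotated there. The sites that HES and HEY proteins bind were searched in the same windows. The HES1 window held 3 N boxes (CACNAG, in 32% of promoters) and 4 class C E boxes (CACGNG, in 26.7%), of which 2 positions match both patterns. The NOTCH3 window held 1 position that matches both, and the other 5 windows held neither pattern. A match describes the letters and does not show that a protein was bound.

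Library totals ran from 47242595 to 78503395 counts. The first principal component of the expression values took 64.3% of the variance and followed batch, and the second took 11.7% and followed population. Levels are therefore given by batch, in CPM (counts scaled to 1 common library size after TMM correction), and 3 counts correspond to 0.0460 to 0.0687 CPM. The levels of the pluripotency markers POU5F1, NANOG, SOX2, TDGF1, DPPA4, LIN28A, DNMT3B and PODXL were summed. The sums of batch 1 were 4968 and 5452 CPM in the general and 4807 and 4771 CPM in the HHH libraries. Those of batch 2 were 6335 to 6910 and 6137 to 6385 CPM. The markers of the labelled cell type were thus present at high level. In edgeR's quasi-likelihood test with a batch term, SOX2 and PODXL passed as lower in HHH (adjusted p = 0.0375 and 0.0306). NANOG passed as higher (adjusted p = 0.00572), and the other 5 did not pass. With libraries paired by replicate number, TDGF1 passed as higher (adjusted p = 0.0342) and SOX2 no longer passed (adjusted p = 0.0773). In batch 2 alone NANOG, TDGF1 and DPPA4 passed as higher and PODXL as lower. The transcript of EPCAM, used for the sort, was 1.33-fold higher in HHH (adjusted p = 0.00645), and that of CD9 was 1.22-fold higher without passing (adjusted p = 0.195). CD9 passed with the pairing of libraries by replicate number (adjusted p = 0.0186). In bulk RNA, fewer cells that express a gene and less RNA per cell cannot be told apart.

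Across both batches, 1 member fell and 2 rose in HHH. DLL1 was lower, and DLL3 and HEY2 were higher. A gene passed where its adjusted p was under 0.05 in edgeR's quasi-likelihood test with a batch term, and was called where it also differed by over 1.5-fold. Of the 10 members, 1 passed as lower, against 3.89% of the 23552 genes tested, and 2 passed as higher, against 1.94% of them. DLL1 and DLL3 were called, 1 lower and 1 higher, where 2.98% of all genes were called, 2.34% as lower and 0.637% as higher. With libraries paired by replicate number, 3 members passed (NOTCH3, DLL1 and DLL3), against 6.95% of all genes, and NOTCH3 and DLL1 were called, against 3.48%. The members' median log2 fold change, HHH minus general, was -0.17, and that of all genes was 0.016. The other 7 members did not pass, although NOTCH2, NOTCH3 and JAG1 had unadjusted p-values under 0.05 (0.0465, 0.00593 and 0.0271).

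**Figure D1:**
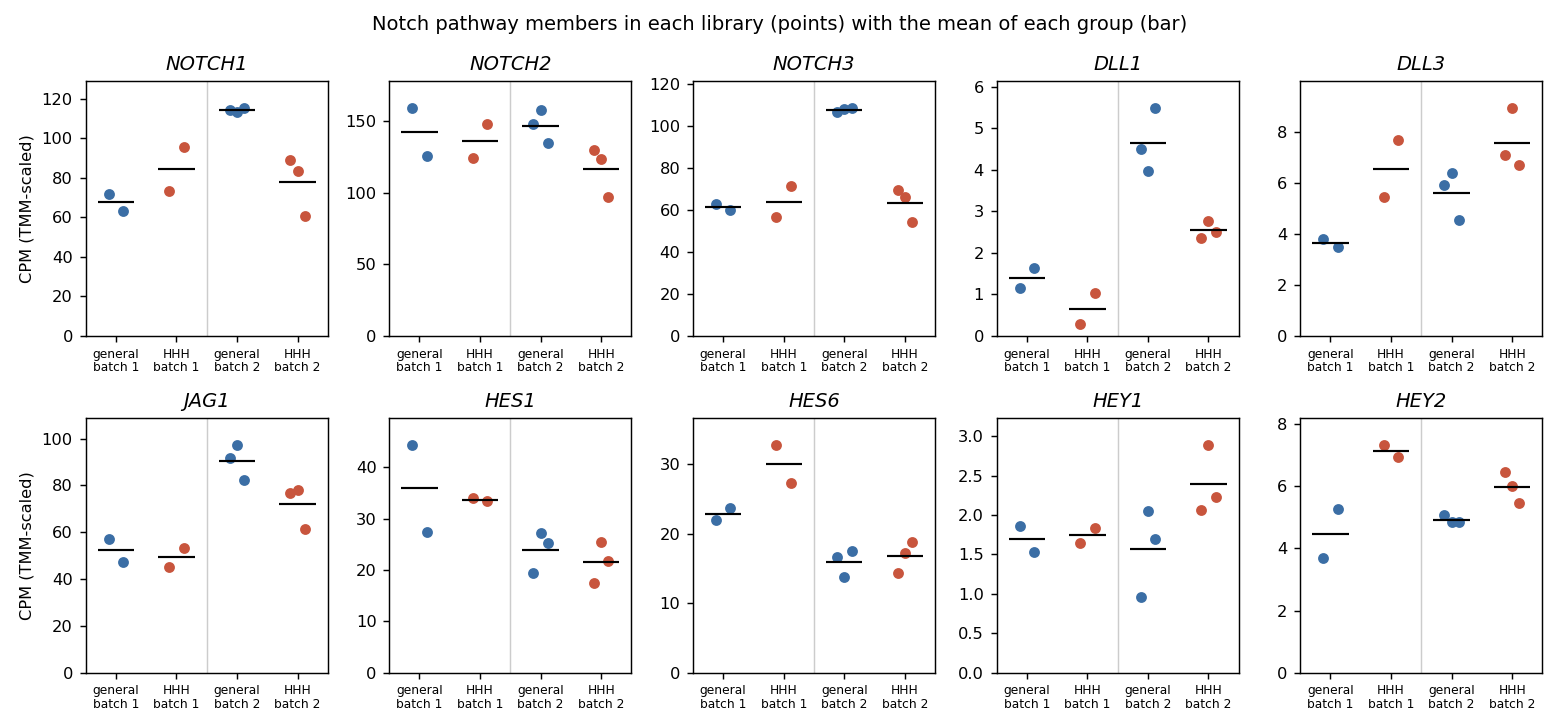
Level of each member in CPM (y axis, from 0) in every library, by population and batch (x axis). Points are libraries and bars are means. In both batches the HHH points of DLL1 lie below the general points, and those of DLL3 and HEY2 lie above them. For NOTCH1 and NOTCH3 the gap is wide in batch 2 and not repeated in batch 1.

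The receptors come first. NOTCH3 (ENSG00000074181, chromosome 19, 15159038 to 15200995, minus strand; GRCh38 positions from GENCODE 44 here and below) stood at 62.6 and 59.9 CPM in the general libraries of batch 1 and at 56.7 and 71.2 CPM in the HHH libraries. In batch 2 it stood at 106, 108 and 108 CPM in the general and at 69.4, 65.9 and 54.4 CPM in the HHH libraries. The populations overlapped in batch 1, whereas in batch 2 every HHH library lay far below every general one. Over both batches the log2 fold change was -0.44 (SE 0.14, adjusted p = 0.0761). In batch 2 alone it was -0.77 (SE 0.095, adjusted p = 0.000215), and in batch 1 alone it was 0.06 (SE 0.13, adjusted p = 0.900). The test of the difference between the batches gave -0.83 (SE 0.16, adjusted p = 0.0347), and 0.777% of all genes passed that test.

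The pooled result of NOTCH3 passed or failed with the fit, changing its side of the threshold in 8 of 21 alternatives. With the libraries paired by replicate number it passed at a log2 difference of -0.60 (adjusted p = 0.0166). General batch 1 replicate 1 and HHH batch 1 replicate 3 have no partner and add nothing to that difference. Leaving out general batch 1 replicate 2 (adjusted p = 0.0372) or HHH batch 1 replicate 3 (adjusted p = 0.00714) also made it pass. Over all alternatives the adjusted p ran from 0.000109 to 0.401, and the fold change was negative in each of them.

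NOTCH1 (ENSG00000148400, chromosome 9, 136494433 to 136546048, minus strand) turned from one batch to the other. It stood at 71.8 and 63.5 CPM in the general and 73.5 and 95.4 CPM in the HHH libraries of batch 1. Batch 2 gave 115, 113 and 115 CPM in the general and at 88.8, 83.6 and 60.9 CPM in the HHH libraries. The HHH libraries were thus the higher ones in batch 1 and the lower ones in batch 2, with no overlap in either batch. Fitted alone, batch 2 had a log2 difference of -0.56 (SE 0.12, adjusted p = 0.00902), and batch 1 alone gave 0.31 (SE 0.14, adjusted p = 0.415). The difference between the batches was -0.88 (SE 0.21) and did not pass (adjusted p = 0.0690), nor did the pooled difference of -0.21 (95% interval -0.54 to 0.12, adjusted p = 0.468).

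Over all tested genes, the fold change within each batch varied with base composition. The longest transcripts of NOTCH1 and NOTCH3 hold 63.3% and 63.1% G and C, more than 94.3% and 93.9% of the tested genes. When the genes were cut into 4 bins by this share, the median log2 fold change in the richest bin was 0.11 in batch 1 and -0.17 in batch 2. In the poorest bin it was -0.08 and 0.12. DLL3 and HES6 are richer still (64.9% and 68.4%). Their differences between the batches, -0.41 and -0.32, did not pass (edgeR adjusted p = 0.410 and 0.364). With each library's trend over GC content removed, an alternative chosen after seeing the data, the difference between batches was -0.54 for NOTCH3 (adjusted p = 0.210) and -0.58 for NOTCH1 (adjusted p = 0.249). Of all genes, 17 then passed the test of that difference, in place of 183. The pooled fold change of NOTCH3 passed after this correction (-0.38, adjusted p = 0.0308).

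The test of the difference for NOTCH3 was also sensitive to single libraries. It passed in 3 of the 10 fits that left out a library, those without HHH batch 1 replicate 2, HHH batch 2 replicate 1 or HHH batch 2 replicate 3. In the other 7 the adjusted p lay above 0.05 and reached 0.132 (without general batch 1 replicate 1). The estimate ran from -0.98 to -0.65. With the libraries paired, which leaves 1 pair in batch 1, the difference was -0.70 (adjusted p = 0.140).

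NOTCH2 (ENSG00000134250, chromosome 1, 119911553 to 120100779, minus strand) had the highest CPM of the receptors, between 126 and 159 CPM in the general and between 97.4 and 148 CPM in the HHH libraries. The populations overlapped in batch 1, and in batch 2 the 3 HHH libraries, at 130, 123 and 97.4 CPM, lay below the lowest general one at 135 CPM. The pooled log2 fold change was -0.22 (95% interval -0.44 to -0.00, adjusted p = 0.232). The human genome holds the NOTCH2NL genes, partial and nearly identical copies of NOTCH2. No counted identifier could be matched to them here, so how their reads were shared out is unknown and the level of NOTCH2 is uncertain.

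Of the ligands, DLL1 (ENSG00000198719, chromosome 6, 170282206 to 170306565, minus strand), a canonical activator of Notch receptors, was lower in HHH. It stood at 1.15 and 1.64 CPM in the general and at 0.279 and 1.03 CPM in the HHH libraries of batch 1. In batch 2 the levels were 4.5, 3.98 and 5.49 CPM in the general and at 2.37, 2.77 and 2.49 CPM in the HHH libraries. Every HHH library lay below every general library of its own batch, as for 5.42% of all genes, although the batches themselves differed so much that the populations overlap when batches are ignored. These levels rest on 13 to 329 counts a library. The fold change was 0.521 (log2 -0.94, SE 0.21, adjusted p = 0.0175), and the batches gave -1.10 (SE 0.49) and -0.88 (SE 0.15), with no detectable difference between them (0.23, SE 0.46, adjusted p = 0.816). DLL1 no longer passed without general batch 2 replicate 3 (adjusted p = 0.0606), without HHH batch 2 replicate 1 (adjusted p = 0.0562) or on the deposited log2 values (adjusted p = 0.0551). Over all alternatives the adjusted p ran from 3.21e-07 to 0.698, the highest without a batch term, and the fold change stayed negative.

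DLL1 shares 9.69% of its exonic bases with FAM120B on the opposite strand, and whether reads were counted by strand is not given in the sources used here. FAM120B, the more abundant of the pair, was at between 14.6 and 18.7 CPM in the general and between 16.1 and 19.4 CPM in the HHH libraries, a log2 fold change of -0.01 (95% interval -0.17 to 0.15).

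DLL3 (ENSG00000090932, chromosome 19, 39498895 to 39508481, plus strand) went the other way. It stood at 3.82 and 3.49 CPM in the general and at 5.45 and 7.67 CPM in the HHH libraries of batch 1. In batch 2 the values were 5.90, 6.39 and 4.54 CPM in the general and at 7.08, 8.92 and 6.70 CPM in the HHH libraries. The HHH libraries were above the general ones in both batches, as for 3.93% of all genes. The increase was 1.51-fold (log2 0.59, SE 0.14, adjusted p = 0.0218), just over the fold needed for a call. Batch 1 gave 0.84 (SE 0.21) and batch 2 gave 0.43 (SE 0.15), and neither passed alone (adjusted p = 0.167 and 0.0706). With paired libraries DLL3 passed at 0.48 (adjusted p = 0.0223), which is under the 1.5-fold needed for a call. It did not pass without general batch 1 replicate 1 (adjusted p = 0.0508), general batch 1 replicate 2 (0.0518), HHH batch 2 replicate 2 (0.0752) or general batch 2 replicate 3 (0.0710). Over all alternatives the adjusted p ran from 6.19e-05 to 0.309.

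JAG1 (ENSG00000101384, chromosome 20, 10637684 to 10673999, minus strand), a ligand of the Jagged family, was the most abundant ligand. It stood at 57.3 and 47.3 CPM in the general and at 45.3 and 53.2 CPM in the HHH libraries of batch 1, which overlapped. Batch 2 gave 91.8, 97.3 and 82.2 CPM in the general and at 76.9, 77.9 and 61.4 CPM in the HHH libraries, which were all lower. The pooled log2 fold change of -0.23 (95% interval -0.43 to -0.03) did not pass (adjusted p = 0.176), and neither did that of batch 2 alone (-0.33, SE 0.10, adjusted p = 0.0501).

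Within batch 2, 5 members lay lower in all HHH libraries than in all general ones (NOTCH1, NOTCH2, NOTCH3, DLL1 and JAG1), as 18.2% of all genes did. Another 3 (DLL3, HEY1 and HEY2) lay higher, as 18.1% did. In batch 1 only DLL1 lay lower, against 21% of all genes, and NOTCH1, DLL3, HES6 and HEY2 lay higher, against 22.5%. In batch 2 alone NOTCH1, NOTCH3 and DLL1 passed the test as lower, and 13.2% of all genes passed, 8.05% as lower. DLL1 and NOTCH3 were called there, against 4.9% of all genes. In batch 1 alone, with 2 libraries a population, 0 members passed in edgeR (3 had an unadjusted p under 0.05) and 0.573% of all genes did. There DESeq2 passed 1 member, DLL3, and limma voom 0.

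**Figure D2:**
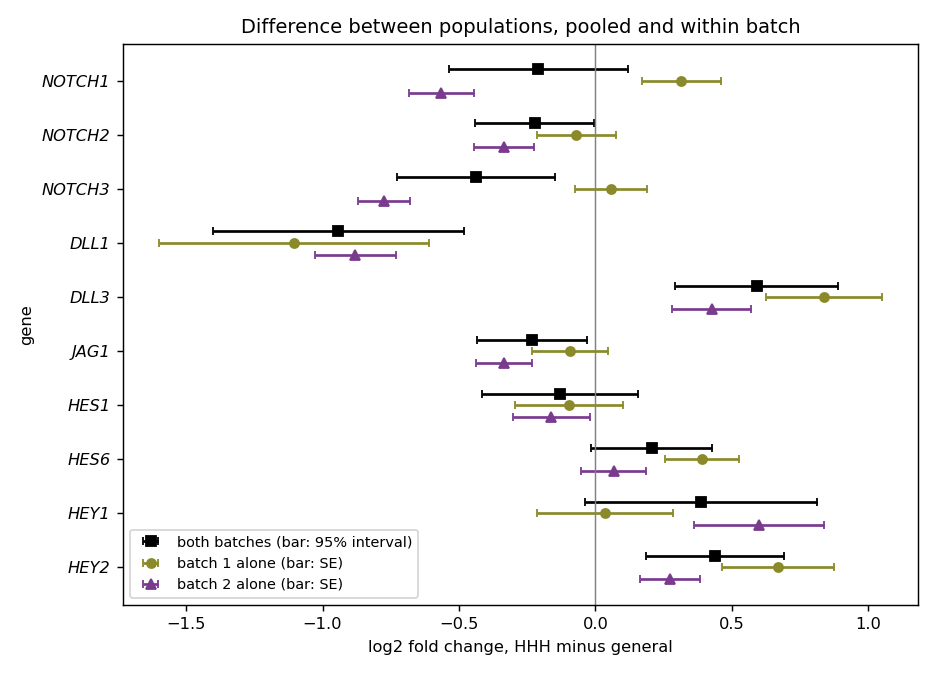
log2 fold change of each member, HHH minus general (x axis), for both batches together (squares, with 95% intervals) and for each batch alone (circles and triangles, with standard errors). DLL1 lies left of 0 and DLL3 and HEY2 right of 0 in all 3 fits, whereas NOTCH1 and NOTCH3 lie right of 0 in batch 1 and left of 0 in batch 2.

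Among the nuclear genes, HES1 (ENSG00000114315, chromosome 3, 194136148 to 194138732, plus strand), the classical target with 2 copies of TGGGAA in the window above, showed no difference beyond its spread. It stood at 44.3 and 27.5 CPM in the general and at 34.0 and 33.4 CPM in the HHH libraries of batch 1. In batch 2 it stood at 19.4, 27.1 and 25.3 CPM in the general and at 17.4, 25.4 and 21.7 CPM in the HHH libraries. The populations overlapped in both batches. The log2 fold change was -0.13 (adjusted p = 0.623), with a 95% interval of -0.41 to 0.16.

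HEY2 (ENSG00000135547, chromosome 6, 125747664 to 125761269, plus strand), a repressor best known from heart and vessel development, was higher in HHH. It stood at 3.68 and 5.27 CPM in the general and at 7.33 and 6.94 CPM in the HHH libraries of batch 1. In batch 2 the levels were 5.07, 4.84 and 4.85 CPM in the general and at 6.46, 6.02 and 5.46 CPM in the HHH libraries. Its HHH libraries lay above the general ones in both batches, as for 3.93% of all genes. The increase was 1.35-fold (log2 0.44, SE 0.12, adjusted p = 0.0441). It was the weakest of the results that passed. With paired libraries it was 0.33 and did not pass (adjusted p = 0.0830). It passed in only 2 of the 10 fits that left out a library, those without general batch 1 replicate 2 and without HHH batch 2 replicate 3, and in the others the adjusted p reached 0.108 (without HHH batch 2 replicate 1). Over all alternatives it ran from 0.00913 to 0.219.

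HEY1 (ENSG00000164683, chromosome 8, 79762371 to 79767857, minus strand), a related repressor, lay between 0.955 and 2.05 CPM in the general and between 1.65 and 2.89 CPM in the HHH libraries. The populations overlapped in batch 1, and in batch 2 the HHH libraries were the higher ones by a narrow margin, 2.06 against 2.05 CPM at the closest. The log2 fold change was 0.39 (95% interval -0.04 to 0.81, adjusted p = 0.285). HES6 (ENSG00000144485, chromosome 2, 238238267 to 238240662, minus strand) lay between 13.8 and 23.7 CPM in the general and between 14.3 and 32.8 CPM in the HHH libraries. Its HHH libraries were the higher ones in batch 1 and overlapped the general ones in batch 2, and the log2 fold change was 0.21 (95% interval -0.02 to 0.43, adjusted p = 0.275). Its longest transcript holds 68.4% G and C, the highest share of the 10 members.

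**Figure D3:**
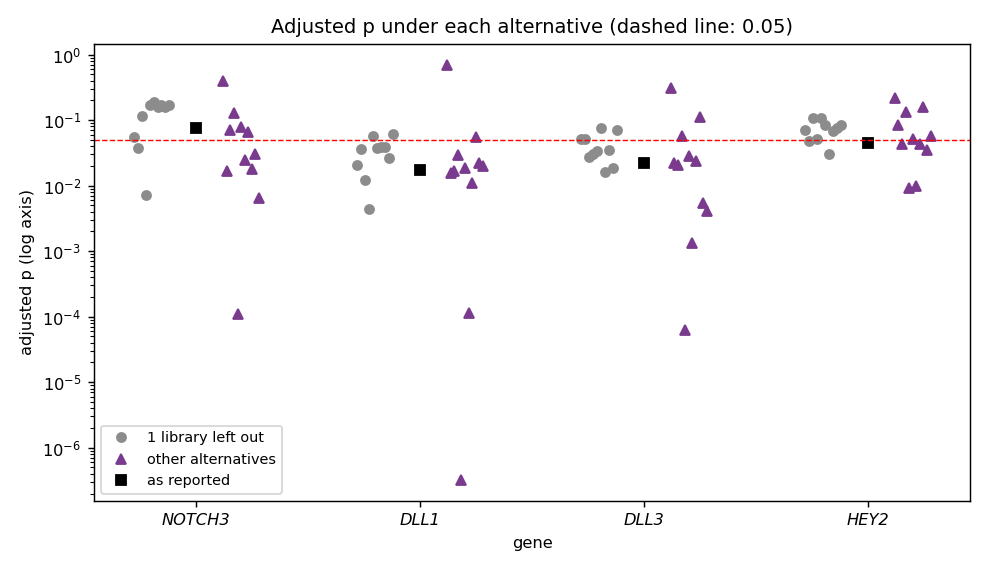
Adjusted p (y axis, log scale) of NOTCH3, DLL1, DLL3 and HEY2 as reported (square), with 1 library left out (circles) and under the other alternatives (triangles), with a dashed line at 0.05. DLL1 lies under the line in most fits, DLL3 on both sides of it, HEY2 mostly above it and NOTCH3 on both sides.

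To compare genes with each other, CPM was divided by the exon length in kilobases. HES1 had the highest length-scaled level in the general population, 13.9 ± 4.51 CPM per kilobase (SD, n = 5), followed by HES6 (9.58 ± 2.08), NOTCH3 (9.47 ± 2.71), NOTCH2 (8.66 ± 0.864), JAG1 (8.08 ± 2.35) and NOTCH1 (7.64 ± 2.06). No neighbours in this upper group were apart: their ranges over libraries of both batches overlapped. The order within the group depended on batch: in the general libraries of batch 1 the mean of HES6 (11.7) lay above those of the receptors and JAG1 (at most 8.51), whereas in batch 2 NOTCH3 (11.4), JAG1 (9.72), NOTCH1 (9.13) and NOTCH2 (8.77) all had higher means than HES6 (8.17). A gap followed, and then DLL3 (1.84 ± 0.487), HEY2 (1.76 ± 0.230), DLL1 (0.878 ± 0.490) and HEY1 (0.295 ± 0.0763), again with overlapping neighbours. In HHH the same 6 genes lay above the gap, between 12.8 CPM per kilobase for HES1 and 6.42 for NOTCH1. Below it DLL3 (2.74 ± 0.488) and HEY2 (2.40 ± 0.274) lay apart from DLL1 (0.468 ± 0.282), which overlapped HEY1 (0.388 ± 0.0868). JAG1 was thus the ligand with the highest length-scaled level in both populations, and DLL3 exceeded DLL1 on this scale in each, with ranges apart within each batch. In the general libraries DLL3 lay at 1.33 to 1.46 against 0.301 to 0.430 CPM per kilobase for DLL1 in batch 1, and at 1.73 to 2.44 against 1.04 to 1.44 in batch 2.

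**Figure D4:**
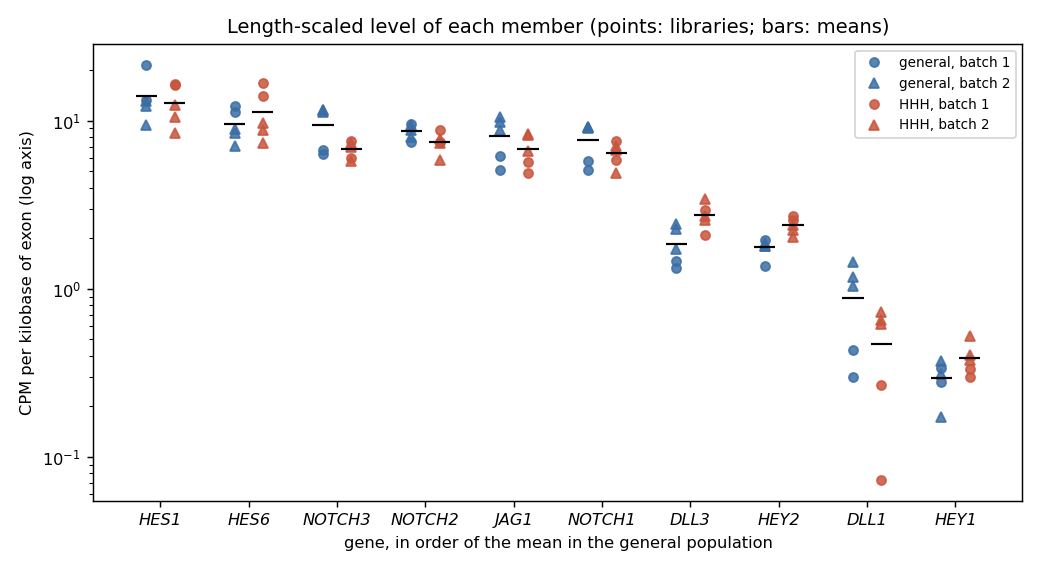
Length-scaled level of each member in CPM per kilobase of exon (y axis, log scale), with the genes ordered by the mean in the general population (x axis). Points are libraries, shaped by batch and coloured by population, and bars are means. A gap separates NOTCH1 and the genes to its left from DLL3 and the genes to its right in both populations.

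The other genes of the pathway came from a list of 59, all with an identifier, of which 48 passed the filter on low counts. Of these 48, 5 fell and 1 rose, where 3.89% of all genes passed as lower and 1.94% as higher. Of the 48, 4 were called (3 lower and 1 higher), or 8.33%. Over all genes 2.98% were called, 2.34% as lower and 0.637% as higher. The share that passed was 12.5%, against 5.83% of all genes, and the median log2 fold change was -0.08. With paired libraries 7 fell and 1 rose, where 6.95% of all genes passed. The genes that passed lay among the ligand-related proteins, the fringe enzymes, the HES relatives and the cofactors.

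DLK1, a membrane protein related to the Delta ligands and often described as an inhibitor of Notch, had the largest fall of the list. It went from 1.44 ± 0.804 CPM (SD, n = 5) in the general to 0.206 ± 0.0781 CPM in the HHH libraries (log2 -2.77, SE 0.38, adjusted p = 0.000510), on 7 to 137 counts a library. In batch 1 its means were 0.779 and 0.288 CPM, and in batch 2 they were 1.88 and 0.151 CPM. LFNG, the fringe enzyme that adds sugars to Notch receptors and so shifts which ligand they answer to, fell from between 19.8 and 23.2 CPM in the general to between 11.4 and 18.6 CPM in the HHH libraries (log2 -0.52, SE 0.088, adjusted p = 0.00243). Its HHH libraries lay below the general ones in both batches, as for 5.42% of all genes. Its fold stayed under that needed for a call.

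Of the further HES/HEY genes and direct targets, 7 of 10 were tested, and 2 fell and 1 rose. HES3, a HES family repressor, had the lowest adjusted p of the list (1.3e-05). It fell from a mean of 9.16 to 3.44 CPM (log2 -1.34, SE 0.12), with batch means of 3.83 and 1.86 CPM in batch 1 and 12.7 and 4.5 CPM in batch 2. HES2, another family member, fell from 1.11 ± 0.460 to 0.233 ± 0.0644 CPM (log2 -2.24, SE 0.32, adjusted p = 0.000767). BHLHE41, a repressor of the same broad helix-loop-helix class with a role in circadian rhythm, rose from 2.08 ± 1.18 to 3.71 ± 1.79 CPM (log2 0.89, SE 0.19, adjusted p = 0.0119). HES3, HES2 and BHLHE41 each kept the populations apart in both batches. Of all genes, 5.42% did so as lower in HHH and 3.93% as higher. HES5 and HES7, textbook Notch targets in the nervous system and in somite formation, were too low to test over both batches, with means of at most 0.172 CPM. In batch 2 alone HES7 was tested and passed as lower (log2 -2.02, edgeR adjusted p = 0.0177), as 8.05% of all genes did. It had at most 21 counts in a library.

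TLE4, a corepressor that HES proteins recruit, fell from 36.5 ± 6.19 to 28.5 ± 3.49 CPM (log2 -0.35, SE 0.089, adjusted p = 0.0329) and overlapped in batch 1. In the remaining tested roles 0 of 28 genes passed in edgeR (6 had an unadjusted p under 0.05) or in limma voom, and DESeq2 passed 1, the coactivator MAML2. Each role is given by its most abundant gene. Among the ligand-endocytosis genes MIB1, the ubiquitin ligase that acts on Notch ligands, was at 242 ± 21.8 CPM in the general and 244 ± 16.8 CPM in the HHH libraries (adjusted p = 0.954). ADAM10, the protease that cuts the receptor once a ligand has bound, was at 150 ± 5.78 and 143 ± 14.3 CPM (adjusted p = 0.616), and RBPJ was at 141 ± 10.9 and 147 ± 17 CPM (adjusted p = 0.789). ITCH, a ubiquitin ligase of the turnover group, was at 82.5 ± 5.47 and 83.4 ± 2.81 CPM (adjusted p = 0.907). Of the proneural factors that HES proteins hold back, ASCL2, NEUROG1, NEUROG2, NEUROG3, ATOH1 and NEUROD1 were too low to test, with means of at most 0.143 CPM.

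**Figure D5:**
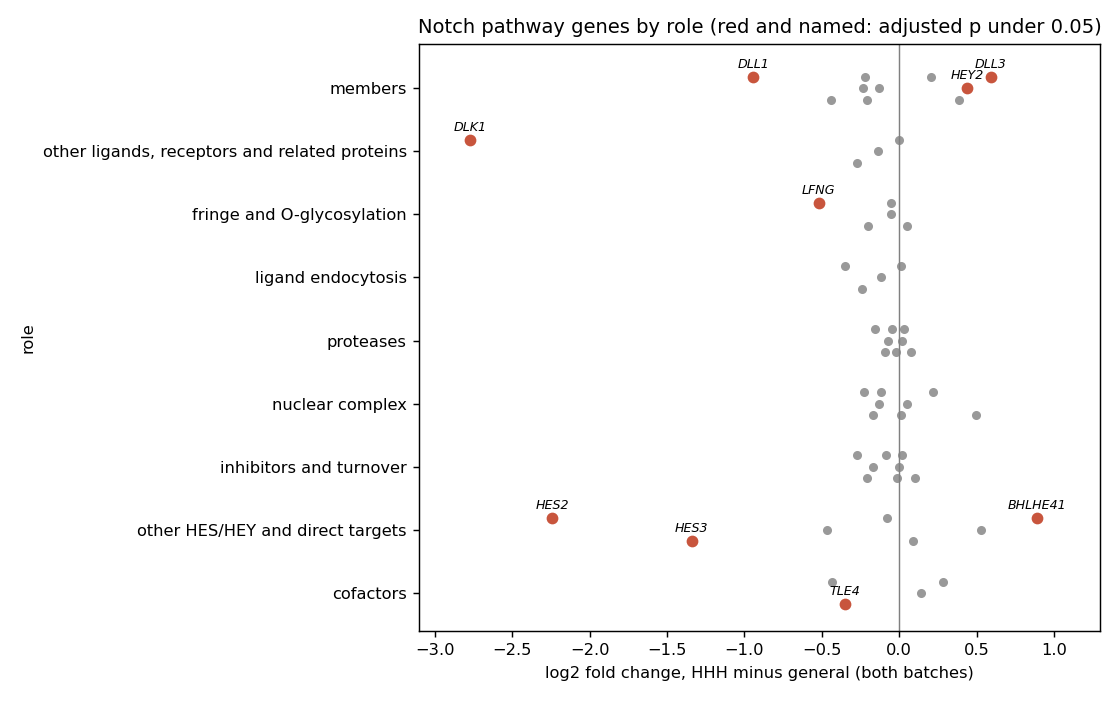
log2 fold change, HHH minus general, over both batches (x axis) of the 10 members and of the 48 other tested pathway genes, grouped by role (y axis). Each point is a gene, and red, named points passed the test. Most points lie near 0, while DLK1, HES2 and HES3 lie far to the left.

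Some markers of other cell types also differed between the populations. Of 9 neural progenitor markers, 4 were tested and 2 fell (LHX5, SOX1), 7 had means under 1 CPM in both populations, and EMX2 was at 0 in every HHH library. SIX6 went the other way, without passing over both batches (log2 1.05, adjusted p = 0.0662). In batch 2 alone SIX6 passed as higher (log2 1.10, adjusted p = 0.00923). The summed level of the 9 markers was 8.44 to 13.5 CPM in the general and 1.99 to 2.55 CPM in the HHH libraries of batch 2. In batch 1 it was 4.75 to 7.39 against 4.59 to 7.23 CPM. LHX5 made up most of the general sum (mean 6.82 against 0.145 CPM in HHH), and FEZF2 was at 3.11 and 5.22 CPM in the HHH libraries of batch 1 but at most 0.0354 CPM in those of batch 2 and in the general libraries. Of 5 neuronal markers, 4 were tested and STMN2 fell. TUBB3 and ELAVL3 leaned down (log2 -0.10 and -0.89) and DCX leaned up (0.20), without passing over both batches. The sums of the 5 markers, mostly TUBB3, were 204.5 to 211 CPM in the general and 193 to 248 CPM in the HHH libraries of batch 1. In batch 2 they were 163 to 177 and 138 to 154 CPM, lower in every HHH library, and ELAVL3 passed as lower in that batch alone (adjusted p = 0.00184). ELAVL4 was at 0 in every library. All 7 mesendoderm markers had means under 1 CPM over both batches. FOXA2 had a mean of 1.52 CPM in the HHH and 0.506 CPM in the general libraries of batch 1. In batch 2 alone TBXT passed as lower (log2 -1.84, edgeR adjusted p = 0.00269). The mesendoderm sums of batch 1 were 0.766 to 1.48 CPM in the general and 1.95 to 2.57 CPM in the HHH libraries. Those of batch 2 were 1.10 to 1.25 and 0.937 to 0.968 CPM. Of the neural crest, amnion and fibroblast markers, SOX10, KRT7 and COL1A1 fell. PAX3, COL1A2 and PDGFRB were tested over both batches and did not pass (log2 -0.08, -0.28 and 0.09). In batch 2 the summed level of each of these lists was lower in every HHH library than in every general one. In batch 1 this held for the neural crest and amnion lists. The fibroblast sums overlapped there (131 to 136 CPM in the general and 118 to 137 CPM in the HHH libraries). The part of such cells in the differences of DLL1, NOTCH3, DLK1 and the HES genes was not tested.

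The members' patterns over libraries were compared by Pearson correlation of log2 CPM after centring on each batch, over the 10 libraries, as a description. The points share library, depth and population. NOTCH2 and JAG1 followed each other most closely (r = 0.990), and NOTCH1 and NOTCH3 came next (r = 0.920). The longest transcripts of NOTCH2 and JAG1 hold 49.4% and 49.6% G and C, so each of these pairs is alike in base composition. HES1 (49.97%) is close to NOTCH2 and JAG1 in this share, with r = 0.37 and 0.40. DLL3 (64.9%) is close to NOTCH1 and NOTCH3, with r = 0.04 and -0.30. Whether base composition shaped these correlations was not tested. DLL1 ran against DLL3 (r = -0.59) and HEY2 (r = -0.64), while DLL3 and HEY2 ran together (r = 0.71). HES1 had no such partner among the members, its highest value being 0.40 with JAG1. Among the 10174 genes with a symbol and a mean of at least 10 CPM, those most like JAG1 were NOTCH2, GANAB (r = 0.986) and TULP4 (r = 0.986). Those most like NOTCH1 were HCFC1 (r = 0.994), TRIM8 (r = 0.989) and ZNF423 (r = 0.988), and those most like HES1 were IER5 (r = 0.918), SLC25A6 (r = 0.858) and MVB12A (r = 0.849).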

How the data were processed

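Total RNA from 10 libraries was sequenced after TruSeq preparation. The authors deposited whole counts per Ensembl gene, without normalization, and a table of log2 values, treated here as a score, from which a batch term had been subtracted: over the 27641 genes counted in every library its batch means differ by at most 9.24e-14. The submitters' processing notes name CASAVA 1.8.2, R 3.2.2, limma 3.26.9 and GRCh37; aligner, counter, annotation and strand setting are not given in the sources used here. Of the 55841 identifiers, 88.5% matched GENCODE 44 (GRCh38), which gave symbols, lengths and positions; the rest, 7.44% to 20.3% of the counts of a library, stayed in the totals and tests.

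Populations, batches and replicate numbers came from the titles. Counts were tested in R 4.3.3 with edgeR 4.0.16: filterByExpr with a minimum count of 10, TMM, batch plus population, a two-sided quasi-likelihood F test and Benjamini-Hochberg adjustment over 23552 genes. The interaction of batch and population and each batch alone were fitted in the same way. DESeq2 1.42.0 and limma 3.58.1 (voom, and the deposited log2 values) were alternatives, with other scalings, filters, left-out libraries and a replicate block. The fit was tested on simulated counts. Totals of 47242595 to 78503395 counts set a precision of 0.0153 to 0.0229 CPM a count.

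Libraries sharing a number in the titles were checked for pairing: their deviations from the batch and population means correlated at 0.113 in batch 1 and 0.239, 0.143 and 0.113 in batch 2, all over 0.1. They were treated as pairs only in the replicate block, an alternative. The main fit, with batch plus population, took no account of pairing. In batch 1, with 2 libraries a population, the deviations mirror each other, so general replicate 1 and HHH replicate 3 also gave 0.113 and the value cannot single out the numbered pair. With a pseudocount of 0.5 CPM the last was 0.0884.

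The members and gene lists were chosen with earlier results of these data known. From the pathway list, the text names every gene that passed (at most 3 a role) and otherwise the most abundant gene of a role, and for likeness the 3 most correlated genes; other named genes were chosen after their values were seen. Some genes of the list are not reported here by name.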

Additional observations from a re-analysis of the deposited data

Results flagged for a closer look

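NOTCH3 differed between batches in its response: the log2 fold change, HHH minus general, was lower by 0.83 in batch 2 than in batch 1 (-0.83, SE 0.16, edgeR adjusted p = 0.0347), from 0.06 in batch 1 to -0.77 in batch 2. All 3 HHH libraries of batch 2 lay below the general ones, and the 2 of batch 1 lay on both sides of them.

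HEY2 in general batch 1 replicate 1 stood apart from the other general libraries, at 3.68 CPM against 4.84 to 5.27 CPM. By chance about 1 in 20 groups would be marked in this way, and 20 groups of members were looked at. Without that library the log2 fold change of HEY2 was 0.33 (adjusted p = 0.0714).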

How the results depend on the processing

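Of 210 values, 10 members under 21 alternatives each, 176 kept their side of the threshold, 25 lost it and 9 gained it, and none changed direction. The number of members called was 2 as reported, 0 without a batch term, on the deposited log2 values or with a fold over 2, and 1 with library size only, with at least 1 CPM in 5 libraries or with limma voom. The number of pathway genes called was 4 as reported and 2 without a batch term or with at least 1 CPM in 5 libraries, where fewer low genes are tested. Leaving out each library in turn gave 0 to 2 members (0 without general batch 2 replicate 3), 4 to 5 pathway genes and 0 to 2 members with a batch difference. Where a fit of the batch difference leaves 1 library in a group, that library is assumed to vary like the others.

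Members whose response differed between batches numbered 1 as reported, 2 without a filter or with DESeq2 (NOTCH1 added), and 0 with library size only, with the GC trend removed, with the replicate block, and with both. The replicate block called 2 members (NOTCH3 in place of DLL3) and 5 pathway genes, where 3.48% of all genes were called. The pairing changed the calls given beside NOTCH3, DLL3 and HEY2 and no other member's. JAG1 passed only with block and GC correction together (adjusted p = 0.0388). The GC alternatives and the block for batch differences were chosen after seeing the data. Apart from those named by construction, the causes were not tested. DLL1 rests on 13 to 329 counts a library.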

Other observations

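In the pathway list NRARP, a feedback inhibitor induced by Notch (adjusted p = 0.0248), and TLE3, a corepressor (adjusted p = 0.0427), both outside the naming rule and chosen after their values were seen, differed in response between batches, and each was more negative in batch 2. NRARP had a log2 fold change, HHH minus general, of 0.57 in batch 1 and -0.23 in batch 2. Its HHH libraries all lay above the general ones in batch 1, as for 22.5% of all genes. In batch 2 they all lay below, as for 18.2%. With the GC trend removed, neither passed (adjusted p = 0.126 and 0.138), and with the replicate block neither did. Over all tested genes 183 passed this test, 170 of them more negative in batch 2.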
